A study of Mus musculus with 8 samples.

Results

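The 4 flavin-containing monooxygenase genes Fmo1, Fmo2, Fmo4 and Fmo5 were followed through 8 mouse ventricle transcriptomes. They were taken by name from a table of 38293 genes. The family was chosen by earlier results of the same samples, the measured levels in heterozygotes against wild types. Their levels by library and that comparison are therefore given as description, with no test, and support nothing on their own. The groups were 4 samples of mice heterozygous for a deletion at coding position 1755 of Pkp2 (PKP2 c.1755delA/WT, here HET) and 4 samples of wild-type mice (PKP2 WT/WT, here WT), all at 8 weeks of age. The series title places them in a study of how desmosomal proteins are lost in arrhythmogenic cardiomyopathy, and Pkp2 encodes the desmosomal protein plakophilin-2. Left and right ventricle were mixed in every sample, and the labels do not say whether samples came from separate animals, so the tests measure only the spread between these samples, which may be technical. Sources name the allele differently: the genotype field omits the deletion and the table carries another base in its name, so the series title was followed.

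Flavin-containing monooxygenases are enzymes of the endoplasmic reticulum that hold a flavin (FAD), draw electrons from NADPH and put an oxygen atom on soft nitrogen and sulfur atoms of drugs, toxins and metabolites. They work beside the cytochromes P450 and are best known from liver, kidney and lung. FMO1 also oxidises hypotaurine to taurine, FMO2 is a main form of lung, FMO5 can insert oxygen next to a carbonyl group, and FMO4 is little studied.

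In the GRCm38 annotation (GENCODE M21) 3 of the 4 genes lie side by side on the minus strand of chromosome 1. Fmo4 (ENSMUSG00000026692) spans chr1:162793188-162813972, Fmo1 (ENSMUSG00000040181) chr1:162829561-162866610 and Fmo2 (ENSMUSG00000040170) chr1:162874317-162898726. Fmo5 (ENSMUSG00000028088) lies alone on the plus strand of chromosome 3, at chr3:97628804-97655282. The transcript with the longest coding sequence held 532 codons for Fmo1, 535 for Fmo2, 560 for Fmo4 and 533 for Fmo5, in 8 coding exons each.

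The stretch of coding sequence that spells the FAD-binding glycines is shown for each gene, since all 4 hold this motif. It is exonic, on the coding strand, 5′ to 3′, with the 3 glycine codons of the GxGxxG motif (x is any residue) in capitals. The stretches run over chr1:162859503-162859544 (Fmo1), chr1:162898252-162898293 (Fmo2), chr1:162809868-162809909 (Fmo4) and chr3:97629076-97629117 (Fmo5).
Fmo1: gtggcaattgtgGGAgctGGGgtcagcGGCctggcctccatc
Fmo2: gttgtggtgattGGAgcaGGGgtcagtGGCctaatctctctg
Fmo4: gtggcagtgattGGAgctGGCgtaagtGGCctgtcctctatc
Fmo5: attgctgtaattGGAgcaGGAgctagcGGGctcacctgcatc

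The motif began at codon 9 in Fmo1, Fmo2 and Fmo4 and at codon 10 in Fmo5. Of 21515 mouse coding genes 3.93% held it within their first 30 codons and 20.6% anywhere in frame, where the search took the coding strand alone. A further match lay at codon 191 in Fmo1 and Fmo4 and at codon 192 in Fmo5, where the enzymes bind NADPH.
Fmo1: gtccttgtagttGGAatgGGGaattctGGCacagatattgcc
Fmo4: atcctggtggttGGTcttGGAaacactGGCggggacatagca
Fmo5: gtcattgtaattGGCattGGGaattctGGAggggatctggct
The first stretches differed between any 2 of the genes at 9 (Fmo1 and Fmo4) to 15 of 42 bases. Over the whole coding sequence the 4 genes were 57.5% (Fmo1 and Fmo4) to 61.7% (Fmo2 and Fmo5) identical, and the longest run shared by a pair was 24 bases (Fmo1 and Fmo5).

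This distance matters for counting, because reads of near-identical genes can be split or dropped. No stretch of 50 bases in any annotated transcript of Fmo1, Fmo2, Fmo4 or Fmo5 occurred in another flavin monooxygenase gene. Stretches of 50 bases shared with some other gene made up 7.02% of those of Fmo1, 0.434% of those of Fmo5 and none of those of Fmo2 or Fmo4. No other annotated gene overlapped any of the 4.

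Total counts were 32397302 to 41234883 per library. Pkp2, the targeted gene, was at 88.2 to 106 CPM (CPM being counts scaled to a common library size) in HET and at 148 to 169 CPM in WT, a log2 fold change of -0.74 (SE 0.065). In edgeR's quasi-likelihood fit the Benjamini-Hochberg adjusted p was 0.00376, and Pkp2 was the single gene of 14567 that passed. Cardiomyocyte markers, 8 genes such as Myh6 and Tnnt2, summed to 73631 to 82296 CPM in the 8 libraries, as the tissue label says of ventricle. WT replicate 3 stood apart: its mitochondrially encoded share of counts was 14.7% against 17.1% to 19.1% in the other 7 libraries. Values without it are given beside the main results that rest on it, but not for marker sums or for the genes that followed a member most closely.

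Fmo1 and Fmo2 supplied most flavin monooxygenase RNA, Fmo5 came next, and Fmo4 was close to the limit of detection. Per kilobase of gene length, taken as the union of annotated exons, the mean over 8 libraries was 7.21 ± 0.665 CPM per kb for Fmo1, 5.26 ± 0.775 for Fmo2, 3.36 ± 0.181 for Fmo5 and 0.0819 ± 0.0177 for Fmo4 (SD, n = 8). These levels placed Fmo1 above 69.4% of the tested genes, Fmo2 above 62.1%, Fmo5 above 50.8% and Fmo4 above 2.397%. Fmo1 ran from 5.83 to 7.86 and Fmo2 from 3.98 to 6.07 CPM per kb, so by this length these neighbours in the order overlapped across libraries. Within each of the 8 libraries Fmo1 was the higher. Fmo5 (3.05 to 3.53) and Fmo4 (0.0606 to 0.109) did not overlap with any other member. With the longest annotated transcript as length, which for Fmo1 is a transcript that keeps an intron, the mean of Fmo1 was 14.6 CPM per kb and that of Fmo2 7.26, and the order of the 4 genes was the same. By that length Fmo1 (11.8 to 15.9) and Fmo2 (5.49 to 8.38) did not overlap.

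**Figure D1:**
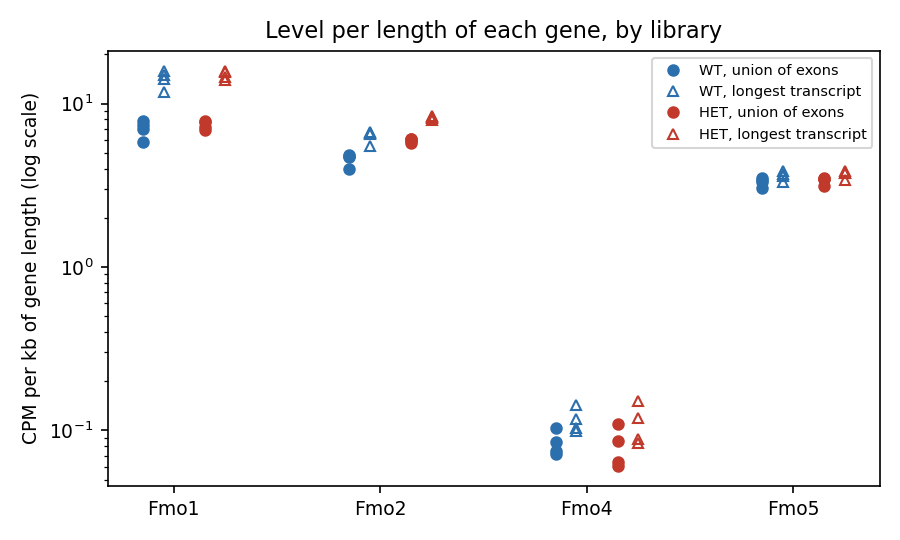
Level of each gene in CPM per kb of gene length on a log scale, 1 point per library, with HET in red and WT in blue. Filled circles use the union of exons and open triangles the longest transcript as length. Fmo4, at 0.0606 to 0.109 CPM per kb by the union of exons, lies far below the other 3 genes, whose lowest value is 3.05.

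Other genes of the family were at or near zero in these ventricles. Fmo9 had 0 counts in all 8 libraries. Fmo6 had 1 count in each of 5 libraries. A count of 0 allows a level of up to 3 counts, which is at most 0.0936 CPM in these libraries.

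Fmo2 was higher in every HET library than in any WT library. It stood at 32.1, 34.1, 33.1 and 33.9 CPM in HET replicates 1 to 4 and at 27.0, 26.5, 22.3 and 27.1 CPM in WT replicates 1 to 4. The groups did not overlap, and WT replicate 3 was the lowest of the 8. The means were 33.3 ± 0.888 CPM in HET and 25.7 ± 2.28 CPM in WT (SD, n = 4 each), a log2 fold change of 0.37 (SE 0.068), so the HET level was 129% of the WT level. Counts of Fmo2 were 924 to 1240 per library, which alone gives a counting error of 2.84% to 3.29%. Between the HET libraries the coefficient of variation was 2.67%, no more than that error, and between the WT libraries 8.88%. The WT value rests on WT replicate 3, without which it was 1.23%, below the HET value and the counting error. Without WT replicate 3 the log2 fold change was 0.31. This is the contrast through which the gene was noticed, so its size is a description.

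Fmo1 did not separate the genotypes. It was at 43.5, 48.5, 45.3 and 49.4 CPM in HET replicates 1 to 4 and at 49.5, 46.6, 36.8 and 44.3 CPM in WT replicates 1 to 4. The highest and the lowest value both belonged to WT libraries, and the lowest was again WT replicate 3. The means were 46.7 ± 2.75 and 44.3 ± 5.45 CPM in HET and WT (SD, n = 4 each), a log2 fold change of 0.07 (SE 0.085) that was -0.01 without WT replicate 3. The WT coefficient of variation was 12.3% with that library and 5.65% without it.

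Fmo5 did not separate the genotypes either. It was at 19.7, 20.03, 19.6 and 17.7 CPM in HET replicates 1 to 4 and at 19.3, 17.3, 18.8 and 19.98 CPM in WT replicates 1 to 4. Each group held 1 library below 18 CPM, and the groups overlapped over nearly their whole range. Means of 19.3 ± 1.04 CPM in HET and 18.9 ± 1.13 CPM in WT (SD, n = 4 each) gave a log2 fold change of 0.03 (SE 0.065), which was -0.01 with library-size scaling and -0.01 without WT replicate 2. It was 0.01 by limma-voom with sample weights, with the title digits described below as covariate, and without HET replicate 2, and 0.07 without HET replicate 4.

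Fmo4 was covered by only 8 to 15 reads per library. It was at 0.238, 0.406, 0.320 and 0.225 CPM in HET replicates 1 to 4 and at 0.264, 0.277, 0.314 and 0.384 CPM in WT replicates 1 to 4. Means of 0.297 ± 0.0837 CPM in HET and 0.310 ± 0.0539 CPM in WT (SD, n = 4 each) gave a log2 fold change of -0.07 (SE 0.300). Counting error alone was 25.8% to 35.4% of each value, so a difference of the size seen for Fmo2 was not detectable at this depth. The sign was positive in 4 of 15 alternatives, with 0.10 for the title digits as covariate.

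**Figure D2:**
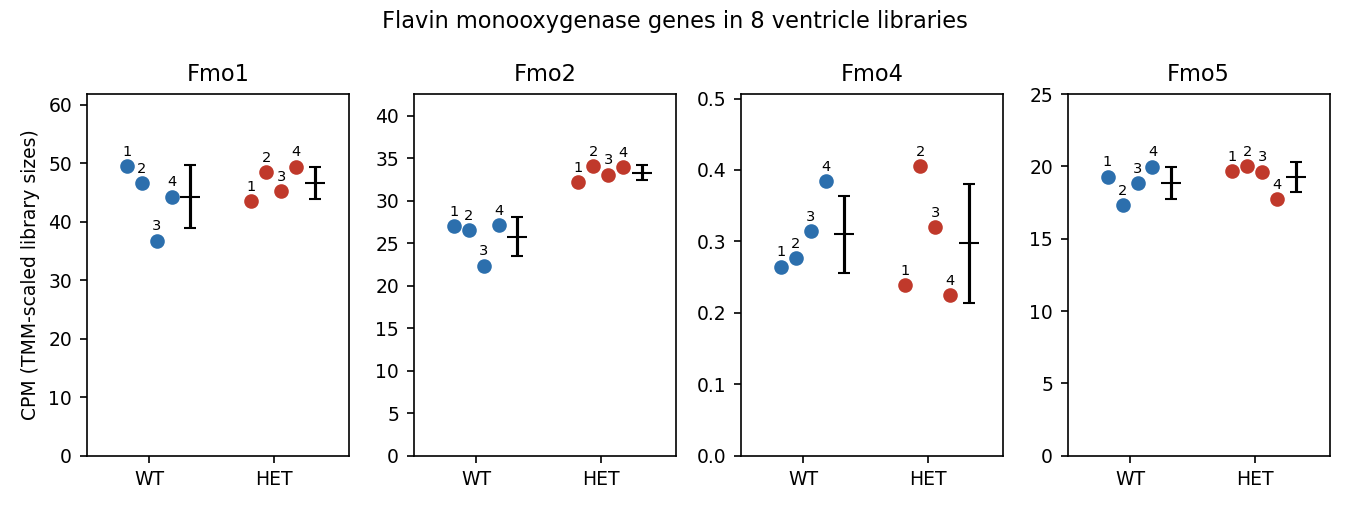
CPM of each gene by genotype, 1 panel per gene, each on its own axis from 0, with 1 point per library labelled with its replicate number. The bar beside each group is the mean with its SD (n = 4). The 4 HET libraries of Fmo2 (32.1 to 34.1 CPM) lie above its 4 WT libraries (22.3 to 27.1 CPM), and the groups overlap for Fmo1, Fmo4 and Fmo5.

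In the fit over all genes 0 of the 4 members passed edgeR's quasi-likelihood test, where 0.00686% of the genes tested passed. At an unadjusted p under 0.05 there was 1 of 4, Fmo2, where 6.38% of all genes tested were. DESeq2 called the same gene, where that tool called 0.0895% of genes, and limma-voom called 0 of 4, with 0.00686% of genes called. The genotypes did not overlap for 1 of 4 members, Fmo2, against 3.78% of all tested genes in either direction and 1.70% with HET higher. Since this contrast took part in choosing the genes, nothing is read from these counts.

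The balance between the genes within a library does not depend on how libraries are scaled. The ratio of Fmo1 to Fmo2 counts was 1.35, 1.42, 1.37 and 1.46 in HET replicates 1 to 4 and 1.84, 1.76, 1.65 and 1.63 in WT replicates 1 to 4. All HET ratios lay below all WT ratios, with WT replicate 3 inside the WT range. Of the summed counts of the 4 genes, Fmo2 made up 33.5% ± 0.257 in HET and 28.8% ± 0.666 in WT, Fmo1 46.9% ± 1.43 and 49.5% ± 2.28, and Fmo5 19.4% ± 1.33 and 21.3% ± 2.18 (SD, n = 4 each). The summed level was 95.5 to 103 CPM in HET and 78.3 to 96.1 CPM in WT, so the totals overlapped. These ratios rest on the same values that chose the genes and carry no test.

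**Figure D3:**
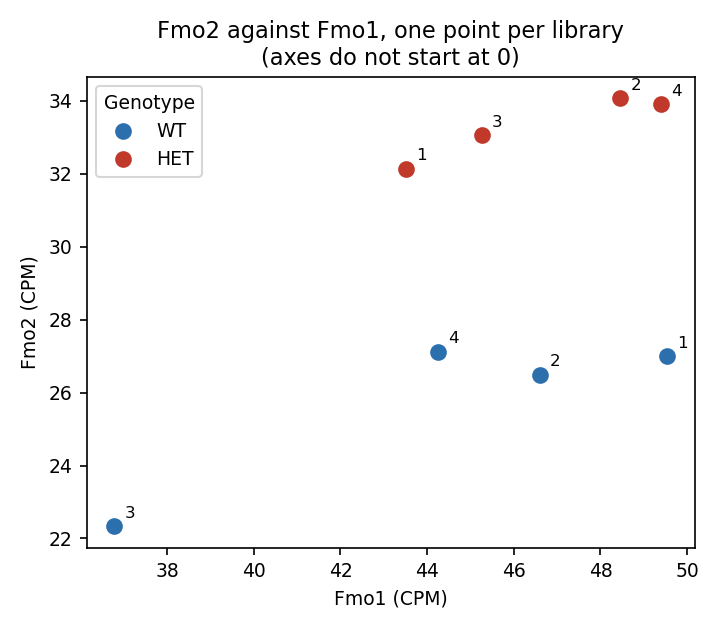
Fmo2 against Fmo1 in CPM, 1 point per library labelled with its replicate number, HET in red and WT in blue; neither axis starts at 0. The HET points lie above the WT points at like levels of Fmo1, and WT replicate 3 is lowest on both axes, at 36.8 and 22.3 CPM.

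Sample titles hold 4 digits that some samples share, whose meaning is not stated. Among titles with 2547, the mean of Fmo2 was 33.03 CPM over 3 HET libraries and 27.0 CPM in 1 WT library, a ratio of 1.22. Among titles with 2579, it was 34.1 CPM in 1 HET library and 24.7 CPM over 2 WT libraries, a ratio of 1.38. The remaining library, with 2580, was WT. For Fmo1 the same ratios were 0.930 and 1.196 and for Fmo5 0.985 and 1.03, on either side of 1. The genotypes of Fmo2 did not overlap, so its ratios had to lie above 1 in either set and add nothing to the difference. Each of these sets held only 1 library of a genotype. With these digits as a covariate the log2 fold change of Fmo2 was 0.37.

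Correlations between the members over all 8 libraries use the same levels through which the family was chosen, and those with Fmo2 include its genotype difference, so they are a description with no p. For Fmo1 and Fmo2, Pearson's r of log2 CPM was 0.644 and Spearman's rho 0.381. Without the 2 libraries farthest from the median of Fmo1, r was 0.398, and without WT replicate 3 it was 0.0707, so the pooled relation rests on that library. For Fmo4 and Fmo5, r was 0.584 and rho 0.619, with an r of 0.271 without the 2 farthest libraries. The other 4 pairs had r from -0.164 to 0.196.

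The same pairs were compared as deviations from the genotype means, which leave out the difference between genotypes, by an exact two-sided permutation test within genotypes. Of 6 pairs 0 passed after Benjamini-Hochberg adjustment. The deviations of Fmo1 and Fmo2 had an r of 0.917 (exact permutation p = 0.0208, adjusted p = 0.125 over the 6 pairs) and a rho of 0.690 (exact permutation p = 0.0799, adjusted p = 0.448). Leaving out the 2 libraries farthest from the median gave an r of 0.717, and leaving out WT replicate 3 gave 0.679 (exact permutation p = 0.139, adjusted p = 0.417). The deviations of Fmo4 and Fmo5 had an r of 0.636 (exact permutation p = 0.101, adjusted p = 0.302) and a rho of 0.548 (exact permutation p = 0.149, adjusted p = 0.448), with an r of 0.405 without the 2 farthest. The other 4 pairs had r from -0.201 (Fmo1 and Fmo5) to 0.0858 (Fmo2 and Fmo4).

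Genes whose level followed each member most closely were taken as the 5 highest Pearson correlations over the 8 libraries among 11954 genes of at least 1 CPM. So many genes over 8 points give high values by selection alone, so r is a description here, and r of the deviations from the genotype means stands beside it. The deviations still hold WT replicate 3, the lowest library of both Fmo1 and Fmo2. These r were not computed without that library, so how far they rest on it is not known. For Fmo1 they were Tmem59 (r 0.958, deviations 0.954), Ing1, a chromatin reader (0.956, 0.972), Ginm1 (0.952, 0.949), Ccdc88c (0.946, 0.963) and Cped1 (0.943, 0.960). For Fmo2 they were Sh3glb1, which bends membranes (0.968, 0.913), Erlec1, a lectin of the endoplasmic reticulum (0.961, 0.848), Shf (0.960, 0.922), Gdi2, which recycles Rab proteins (0.957, 0.790), and the mitochondrial protease Lonp1 (0.955, 0.917). Of these 5, Shf had the largest log2 fold change: it was at 3.38 ± 0.210 CPM in HET against 2.68 ± 0.328 CPM in WT (log2 fold change 0.33, SE 0.129), and Sh3glb1 at 258 ± 3.14 and 244 ± 7.08 CPM (0.08, SE 0.042).

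For Fmo4, itself near the limit of detection, the genes were Katnal1 (0.964, 0.992), St6galnac2 (0.945, 0.945), Ptms (0.937, 0.941), Zfpl1 (0.926, 0.929) and Nupr1, a stress-induced nuclear protein (0.922, 0.960). For Fmo5 they were Zfp418 (0.976, 0.975), Tmem87a (0.942, 0.941), Gnpda1, an amino sugar deaminase (0.939, 0.937), the tubulin Tuba1a (0.923, 0.957) and Phf20 (0.918, 0.915). No gene stood among the 5 of more than 1 member.

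Neighbours of the genes on the chromosome did not pass the test. Of 17 genes that start within 500 kb of Fmo1, Fmo2 or Fmo4, 6 were tested and 0 passed by edgeR. Their log2 fold changes ran from -0.17 to 0.34 (4 of 6 positive, median 0.09). Vamp4, a vesicle fusion protein, was at 13.6 ± 0.547 CPM in HET against 12.6 ± 0.363 CPM in WT (SD, n = 4 each; 0.11, SE 0.062), and it was the 1 neighbour whose genotypes did not overlap, against 3.78% of all genes. Mettl13 was at 9.79 ± 0.700 and 11.0 ± 1.23 CPM (-0.17, SE 0.094), and Myoc, which encodes myocilin, at 4.27 ± 1.48 and 3.36 ± 0.0931 CPM (0.34, SE 0.211). Of 12 genes near Fmo5, 7 were tested and 0 passed (3 of 7 positive, median -0.01). The 3 of smallest p were Prkab2, a subunit of AMP-activated kinase, at 80.7 ± 7.98 and 73.6 ± 5.51 CPM (0.13, SE 0.077), Pde4dip, myomegalin, at 2553 ± 102 and 2416 ± 101 CPM (0.08, SE 0.048), and the phosphatase Acp6 at 32.9 ± 2.97 and 35.1 ± 2.62 CPM (-0.09, SE 0.075).

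Genes of cofactor supply, drug metabolism, taurine, methionine sulfoxide repair and regulation were read from 9 lists with 76 tested genes. The lists were set by topic, and not every gene in them acts together with flavin monooxygenases. Of these 76 genes 0 passed by edgeR in either direction, 6 had an unadjusted p under 0.05 (6.38% of all genes did), and DESeq2 called 1 (0.0895% of all genes). Their median log2 fold change was 0.01 with 39 of 76 positive, against a median of -0.00 with 7068 of 14567 positive over all genes tested. The genotypes did not overlap for 3 of the 76, Cyp51 and Pgls among them, where 3.78% of all genes did not.

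The cofactors came first. In flavin supply 0 of 5 genes passed (2 positive, median -0.07). Rfk, which makes FMN from riboflavin, was at 77.5 ± 3.18 CPM in HET against 73.4 ± 1.98 CPM in WT (log2 fold change 0.08, SE 0.047), and Flad1, which makes FAD from FMN, at 67.4 ± 5.05 and 63.7 ± 2.52 CPM (0.08, SE 0.059). The riboflavin transporter Slc52a3 was weak, at 1.24 ± 0.307 and 1.86 ± 0.783 CPM (-0.58, SE 0.292). In NADPH supply 0 of 7 genes passed (2 positive, median -0.06). Pgls of the pentose phosphate pathway was at 40.7 ± 3.28 and 45.2 ± 1.32 CPM (-0.15, SE 0.061), Aldh1l1 at 3.27 ± 1.198 and 3.88 ± 0.781 CPM (-0.25, SE 0.259), and the dehydrogenase Idh1 at 54.8 ± 5.15 and 57.0 ± 5.25 CPM (-0.06, SE 0.081).

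Among the other oxygenases of the endoplasmic reticulum and their reductases 0 of 14 tested genes passed (8 positive, median 0.01). Cyp51, of sterol synthesis, was at 14.3 ± 0.747 CPM in HET against 12.2 ± 0.243 CPM in WT (log2 fold change 0.24, SE 0.063). Cyp1b1 was at 5.74 ± 1.12 and 4.24 ± 0.929 CPM (0.44, SE 0.180), and Cyp4f13 at 9.31 ± 0.974 and 10.7 ± 1.44 CPM (-0.21, SE 0.111). Of 21 conjugating and other drug-metabolising enzymes 0 passed (10 positive, median -0.02). The amine oxidase Maob, also a flavoenzyme, was at 55.5 ± 3.15 and 48.7 ± 5.90 CPM (0.19, SE 0.084), and the sulfotransferase Sult1a1 at 24.7 ± 2.11 and 21.3 ± 3.11 CPM (0.22, SE 0.102).

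In the hypotaurine and taurine list, where FMO1 acts, 0 of 6 tested genes passed (4 positive, median 0.07). The taurine transporter Slc6a6 was at 126 ± 5.90 CPM in HET against 146 ± 19.5 CPM in WT (log2 fold change -0.20, SE 0.089), the dioxygenase Ado at 26.9 ± 1.63 and 24.6 ± 0.667 CPM (0.12, SE 0.059), and Cdo1, which starts taurine synthesis from cysteine, at 1.09 ± 0.237 and 0.786 ± 0.314 CPM (0.48, SE 0.292). All 4 methionine sulfoxide reductases had small positive values and 0 passed (median 0.07). Msra was at 46.4 ± 1.77 and 44.4 ± 1.81 CPM (0.06, SE 0.050), Msrb2 at 65.7 ± 3.08 and 62.3 ± 6.10 CPM (0.08, SE 0.071), and Msrb3 at 139 ± 13.5 and 132 ± 12.6 CPM (0.08, SE 0.084).

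Regulators and the targets that report on them gave no call either. Of 6 tested targets of NRF2, the factor of the oxidant response, 0 passed (1 positive, median -0.14). Gclc, of glutathione synthesis, was at 14.3 ± 0.819 CPM in HET against 15.9 ± 1.01 CPM in WT (log2 fold change -0.15, SE 0.070), Hmox1 at 8.14 ± 1.35 and 9.54 ± 1.14 CPM (-0.23, SE 0.131), and Gclm at 18.3 ± 2.79 and 20.7 ± 1.74 CPM (-0.17, SE 0.106). Of 5 genes of the aryl hydrocarbon receptor 0 passed (4 positive, median 0.07). Its target Cyp1a1 was at 1.196 ± 0.767 and 0.501 ± 0.353 CPM (1.24, SE 0.691), the receptor Ahr at 8.66 ± 0.829 and 9.67 ± 1.26 CPM (-0.16, SE 0.111), and its partner Arnt at 58.6 ± 1.62 and 55.9 ± 4.37 CPM (0.07, SE 0.059). Of 8 other tested regulators 0 passed (4 positive, median 0.00), with the oestrogen receptor Esr1 at 0.550 ± 0.105 and 0.738 ± 0.131 CPM (-0.42, SE 0.234), Yy1 at 24.0 ± 1.12 and 22.9 ± 1.10 CPM (0.07, SE 0.060) and Foxo3 at 93.9 ± 5.63 and 89.4 ± 6.53 CPM (0.07, SE 0.065). The liver factor Hnf4a had 0 to 15 counts per library and was not tested.

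**Figure D4:**
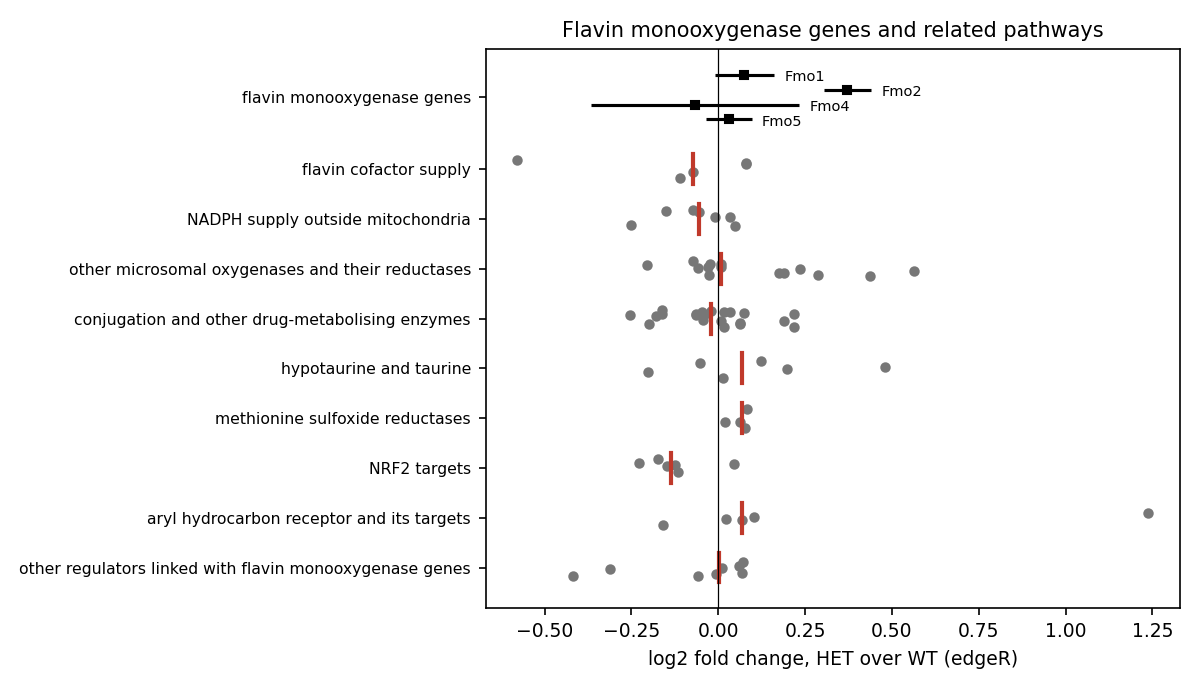
Log2 fold change, HET over WT, of the 4 flavin monooxygenase genes (black squares with SE) and of the tested genes of each related list (grey points, scattered vertically for legibility), with the median of each list as a red line. Fmo2 lies at 0.37, and list medians lie between -0.14 and 0.07.

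Bulk ventricle holds several cell types, and in such samples fewer cells of a type and less RNA per cell cannot be told apart. Summed fibroblast markers, 10 genes such as Dcn and Pdgfra, were 2175 to 2474 CPM in HET and 2295 to 2573 CPM in WT, and 1 of 10 had a positive log2 fold change (median -0.06). The 8 endothelial markers summed to 1412 to 1581 CPM in HET and 1416 to 1674 CPM in WT, and the 9 of pericytes and smooth muscle to 1415 to 1521 and 1379 to 1554 CPM. The 8 macrophage markers summed to 324 to 381 CPM in HET and 334 to 479 CPM in WT, 0 of 8 with a positive value (median -0.06). Every macrophage marker had a larger SD in WT than in HET, such as C1qb with 16.6 against 3.27 CPM. Marker values without WT replicate 3 were not computed, so how far the lower macrophage values in HET rest on that library is not known. In these lists, and in the cardiomyocyte list, 0 genes passed, and the genotypes' ranges overlapped in each. Cardiomyocyte markers summed to 76846 to 82296 CPM in HET and 73631 to 77288 CPM in WT, with 6 of 8 positive (median 0.05). Positive values were 3 of 8 for endothelial markers (median -0.01) and 5 of 9 for pericytes and smooth muscle (median 0.06). Markers of lymphocytes (1.07 to 2.17 CPM in all), adipocytes (0.449 to 6.18 CPM) and neurons and Schwann cells (11.8 to 19.7 CPM) were low, 0 of their tested genes passed, and of 6 mesothelial and epicardial markers 1 was tested. Log2 fold changes of the 3 tested adipocyte markers were all positive, with a median of 1.64 and summed levels of 0.449 to 6.18 CPM in HET and 0.481 to 1.38 CPM in WT. The part of these lists in the Fmo2 difference was not tested.

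The level of each member was also set against the mean marker score of the 8 lists with at least 3 tested genes, 32 relations in all, given as description for the same reason. Macrophage markers gave the Pearson value farthest from 0, with Fmo1: r was -0.826 and rho -0.429. Without the 2 libraries farthest from the median of that score r was -0.284, and without WT replicate 3 it was -0.0976, so it rests on that library. For Fmo1 and endothelial markers r was 0.715 and rho 0.833, with an r of 0.456 without the 2 farthest and 0.635 without WT replicate 3. For Fmo2, pooled values and deviations from the genotype means differed. Its r with fibroblast markers was -0.0413 pooled and 0.523 in the deviations, and 0.189 in the deviations without WT replicate 3. With endothelial markers these values were 0.0472, 0.734 and 0.369, and with pericyte and smooth muscle markers 0.262, 0.840 and 0.533. With macrophage markers they were -0.604, -0.868 and 0.233, and with lymphocyte markers -0.745, -0.540 and 0.359. With cardiomyocyte markers they were 0.664, 0.0068 and -0.774, and with adipocyte markers 0.341, -0.467 and -0.659. With neuronal and Schwann markers they were 0.198, -0.225 and 0.519. Leaving out WT replicate 3 turned the sign in the deviations for macrophage, lymphocyte, cardiomyocyte, and neuronal and Schwann markers.

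**Figure D5:**
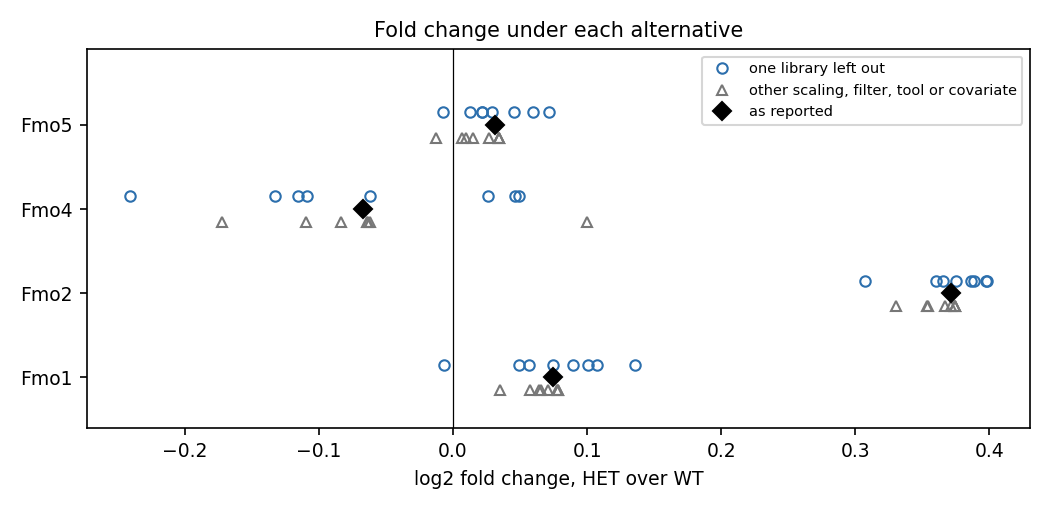
Log2 fold change, HET over WT, of each member as reported (black diamonds), with 1 library left out (blue circles) and under other scaling, filters, tools or the covariate (grey triangles). Fmo2 stays between 0.31 and 0.40, while the values of Fmo1, Fmo4 and Fmo5 fall on both sides of 0. Leaving out 1 library could hardly turn the sign of Fmo2, whose genotypes do not overlap.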

How the data were processed

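Poly(A) RNA of mouse ventricle was sequenced with a stranded TruSeq kit, per the labels' protocols. The authors deposited whole-number read counts per Ensembl gene, not normalised, for 8 libraries. STAR 2.4.2a, HTSeq 0.6.1 and GRCm38/mm10 are named in the submitters' processing notes, and the annotation release and strand setting of the counting are not given in the sources used here. Symbols matched 36345 of 38293 genes. Groups came from the genotype label, and replicates were numbered in order of deposition, so numbers pair nothing.

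Genes were filtered with filterByExpr (14567 kept), scaled by TMM and compared with edgeR 4.0.16 in R 4.3.3 (robust quasi-likelihood test, Benjamini-Hochberg adjustment, threshold 0.05), which was tested on simulated data. SE came from the F statistic. CPM used TMM-scaled library sizes, and log2 CPM a prior count of 2. Correlations of deviations from the genotype means were tested over all 576 orders within genotypes. DESeq2 1.42.0 and limma 3.58.1 were alternatives. Coding sequences were read from GENCODE M21 transcripts and aligned with Biopython 1.88.

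The members, lists and tests were chosen with earlier results of these data known. Named genes are the 4 members and Pkp2, the other family genes, the 3 genes of smallest p in each list and near each locus, and the 5 genes closest in pattern to each member. Other genes, such as list examples, were named after their values were seen. Some genes that this rule names are not reported here. No genome sequence or protein table was used here.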

Additional observations from a re-analysis of the deposited data

Results flagged for a closer look

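Of 14 groups of 4 values checked for a library far from the others (the 4 members and 3 ratios between them, in each genotype), 2 were set apart; chance does this in about 1 in 20 groups. Fmo2 in WT replicate 3 was at 22.3 CPM, against 26.5 to 27.1 CPM in the other WT libraries. Fmo5 in HET replicate 4 was at 17.7 CPM, against 19.6 to 20.03 CPM in the other HET libraries.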

How the results depend on the processing

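Fmo2 had a positive log2 fold change in all 16 alternatives (0.31 to 0.40). Its genotypes did not overlap, so leaving out a library could hardly turn the sign, and the gene was noticed through this contrast. Fmo1 was positive in 15 of 16 (-0.01 to 0.14), Fmo5 in 14 of 16 (-0.01 to 0.07) and Fmo4 in 4 of 15 (-0.24 to 0.10), Fmo4 being removed by the filter of 1 CPM. Each of these values moved by less than the SD between replicates. With 1 library left out this was close to fixed in advance, because 1 library can move a group mean only by part of that SD. It is therefore no sign of stability for those settings. Over all genes edgeR called 0 higher and 1 lower, with 930 genes at an unadjusted p under 0.05. DESeq2 called 7 higher and 6 lower, 1 of them a pathway gene. Without a filter on low counts 2 genes were lower. Leaving out each library gave 0 higher, 1 to 3 lower (3 without HET replicate 3) and 0 pathway genes. The count of correlated pairs was 0 with deviations from genotype means. For the pooled levels it was also 0 over all 40320 orders, and with other scaling, another prior count or 1 library left out. Nothing is read from the pooled counts, because the family was chosen through those levels. The marker relations as deviations or without WT replicate 3, and the spread without it, were added after the data were seen. Among other settings so added the count was 0 when each library was left out with permutation within genotypes. It was 1 (Fmo1 and Fmo2, adjusted p = 0.0186) with deviations permuted across genotypes, which treats them as exchangeable between groups. The SD of Fmo2 was 0.888 CPM in HET and 2.28 CPM in WT, so the deviations were not of like spread and nothing is read from that p. Library-size scaling moved the median of all genes to -0.05. Depth limits Fmo4, Fmo6 and Fmo9, and title digits leave 1 library in a genotype.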
